A study of Mus musculus with 4 samples.

Results

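The circadian clock genes Arntl, Clock, Per1, Per2, Per3, Cry1, Cry2, Nr1d1, Nr1d2 and Dbp were followed in cultured mouse astrocytes after an RNA interference knockdown of Phf8. The genes were chosen by symbol as the core of the molecular clock, and all 10 were found among the 55421 genes listed in the deposited counts. Total RNA depleted of ribosomal RNA was sequenced from 4 libraries. The 2 control libraries came from astrocytes infected with lentivirus carrying a control short hairpin RNA (shRNA), and the 2 Phf8 shRNA libraries from astrocytes infected with lentivirus carrying an shRNA against Phf8, a histone demethylase gene. All astrocytes were derived in culture from C57BL/6J neural stem cells in medium with serum, so every group shares this origin, the serum and a viral infection. The labels do not say when cells were collected relative to infection or to a change of medium, so each library is a snapshot at an unstated phase of any rhythm. They also do not say whether replicates were separate cultures or infections, and p-values then measure only the spread between these libraries, which may be technical.

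The clock is a feedback loop of transcription that runs in most mammalian cells, astrocytes included. The proteins of Arntl (BMAL1) and Clock pair and bind E-box sequences near Per, Cry, Nr1d1, Nr1d2 and Dbp, and the PER and CRY proteins return to the nucleus and block that pair. In a second loop, the nuclear receptors REV-ERB alpha and beta (Nr1d1 and Nr1d2) repress Arntl while receptors of the ROR family activate it, and DBP with its relatives TEF and HLF acts on D-box sequences. In cells with a running clock, Arntl RNA is known to peak at about the opposite phase to Nr1d1 and Dbp RNA.

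Promoter sequence was available in RefSeq tables (GRCm38.p6) for 9 of the 10 genes (all but Per2), with 13 start sites between them. The 250 bases before each start were searched on both strands for the E-box CACGTG, the D-box TTATGTAA, the word AGGTCA at the core of sites of ROR and REV-ERB receptors, and the cyclic AMP response element TGACGTCA. None of these words contains another. The 3 clock genes below are shown because they held an E-box or a D-box, and Arntl because it changed most. Ciart, a gene of a repressor of the BMAL1 and CLOCK pair, was among the other clock factors examined and held 3 E-boxes. RefSeq starts need not be the ends of the gene coordinates given below. Sequences run 5′ to 3′ along the gene, and capitals mark every match to any of the 4 words, on either strand.
Per1, chr11:69098699-69098948, plus strand: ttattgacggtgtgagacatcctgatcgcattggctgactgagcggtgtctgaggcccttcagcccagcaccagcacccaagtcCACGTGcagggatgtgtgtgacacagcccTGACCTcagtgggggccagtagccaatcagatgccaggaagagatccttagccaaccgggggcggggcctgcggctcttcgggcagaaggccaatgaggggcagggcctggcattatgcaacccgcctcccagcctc
Cry1, chr10:85185055-85185304, minus strand: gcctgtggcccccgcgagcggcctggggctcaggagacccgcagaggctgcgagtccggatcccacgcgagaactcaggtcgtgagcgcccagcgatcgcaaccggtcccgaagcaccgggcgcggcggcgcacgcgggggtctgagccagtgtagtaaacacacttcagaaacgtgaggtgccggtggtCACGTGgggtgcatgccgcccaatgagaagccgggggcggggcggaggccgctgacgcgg
Per3, chr4:151044666-151044915, minus strand: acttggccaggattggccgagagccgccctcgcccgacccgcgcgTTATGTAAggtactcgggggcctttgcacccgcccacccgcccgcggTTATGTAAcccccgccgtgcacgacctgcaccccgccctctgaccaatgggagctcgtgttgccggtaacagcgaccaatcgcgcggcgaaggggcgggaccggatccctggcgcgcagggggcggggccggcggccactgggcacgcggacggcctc
Arntl, chr7:113207215-113207464, plus strand: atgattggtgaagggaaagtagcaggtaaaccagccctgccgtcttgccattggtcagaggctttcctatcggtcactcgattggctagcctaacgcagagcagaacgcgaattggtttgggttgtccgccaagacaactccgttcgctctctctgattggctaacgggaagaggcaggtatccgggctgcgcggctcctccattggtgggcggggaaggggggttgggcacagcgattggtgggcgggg
Ciart, chr3:95882229-95882478, minus strand: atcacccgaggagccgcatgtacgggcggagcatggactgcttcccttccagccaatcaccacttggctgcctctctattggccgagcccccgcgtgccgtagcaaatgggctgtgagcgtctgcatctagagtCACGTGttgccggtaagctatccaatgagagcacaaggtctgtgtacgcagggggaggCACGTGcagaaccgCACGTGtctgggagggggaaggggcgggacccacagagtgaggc

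The E-box began 166 bases before 1 start of Per1 and 60 bases before that of Cry1, and 6.02% of the 32851 promoters of this length in the tables held one. The window of the other Per1 start held none of the 4 words. Per3 held 2 D-boxes, starting 205 and 158 bases before its start, against 0.819% of promoters with at least 1. The word AGGTCA, present in 14% of promoters, was found in 1 window each of Per1, Clock and Nr1d2, and the response element, present in 1.55%, in none of the 9 genes. These percentages count single promoters, whereas Per1 and Clock had several windows searched, so the 2 are not like for like. The windows of Arntl held none of the 4 words, which says only that these letters were not in these bases. A match is a description of sequence and not evidence of a bound factor.

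Reads assigned to genes amounted to 36839530 to 44724759 per library, and each clock gene had 511 to 7642 reads in each library. The targeted gene Phf8 was lower in both Phf8 shRNA libraries, with 44.3 and 42.2 CPM against 53.2 and 53.0 CPM in the control (a change of -18.5%, log2 fold change -0.30 ± 0.06 SE, adjusted p = 1.72e-06 in edgeR). This absolute log2 fold change exceeded that of 47.2% of all genes tested, whose median was 0.32, so the target RNA differed slightly less than the median gene. CPM, the usual counts-per-million unit, gives the count of a gene relative to the size of its library after TMM scaling, which sets libraries level on the bulk of their genes, and edgeR stands here and below for its quasi-likelihood test with Benjamini-Hochberg adjustment over all 21042 genes tested. All 9 astrocyte markers examined were detected at 32.5 CPM or more in every library, with summed levels of 9317 to 9564 CPM in control and 5948 to 6663 CPM in Phf8 shRNA libraries. Of these markers, 6 fell and 2 rose: the sum follows mainly Gfap, which fell from a mean of 3968 to 1171 CPM, while Slc1a2 rose 7.20-fold and Gja1 rose 1.27-fold. Of all genes tested, 27.3% fell and 24.8% rose at an adjusted p under 0.05 in edgeR. The share of mitochondrial ribosomal RNA was 21.2% and 22.5% in control and 27.8% and 28.2% in Phf8 shRNA libraries. With mitochondrial genes and the 20 most abundant genes left out of the library sizes, 8 clock genes were called, as with them.

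The comparison asks how the RNA of the clock genes differed when Phf8 was knocked down. Arntl approximately doubled, Clock fell, and 6 of the 8 genes that the pair is known to activate, or that act on it, rose by smaller amounts. Of the 10 genes, 7 rose (Arntl, Per2, Per3, Cry1, Cry2, Nr1d2 and Dbp), 1 fell (Clock), and Per1 and Nr1d1 did not pass the test. The background was broad: 52.1% of all genes tested were called, 24.8% as higher and 27.3% as lower. Of all calls, 47.7% were higher, and 58.0% with upper-quartile scaling. All 10 clock genes averaged at least 10 CPM, and among the 9139 genes that did so, a limit chosen after the values were seen, 65.1% were called, 28.6% as higher and 36.5% as lower. The share of clock genes called, 80%, is a description of 10 genes beside that background. Their median log2 fold change was 0.23, against 0.01 over all genes tested, and their median absolute log2 fold change was 0.29 against 0.32. Only Arntl changed by at least 1.5-fold, whereas 25.9% of all genes tested (12% higher, 13.9% lower) and 18.4% of those with at least 10 CPM were called at that size.

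**Figure D1:**
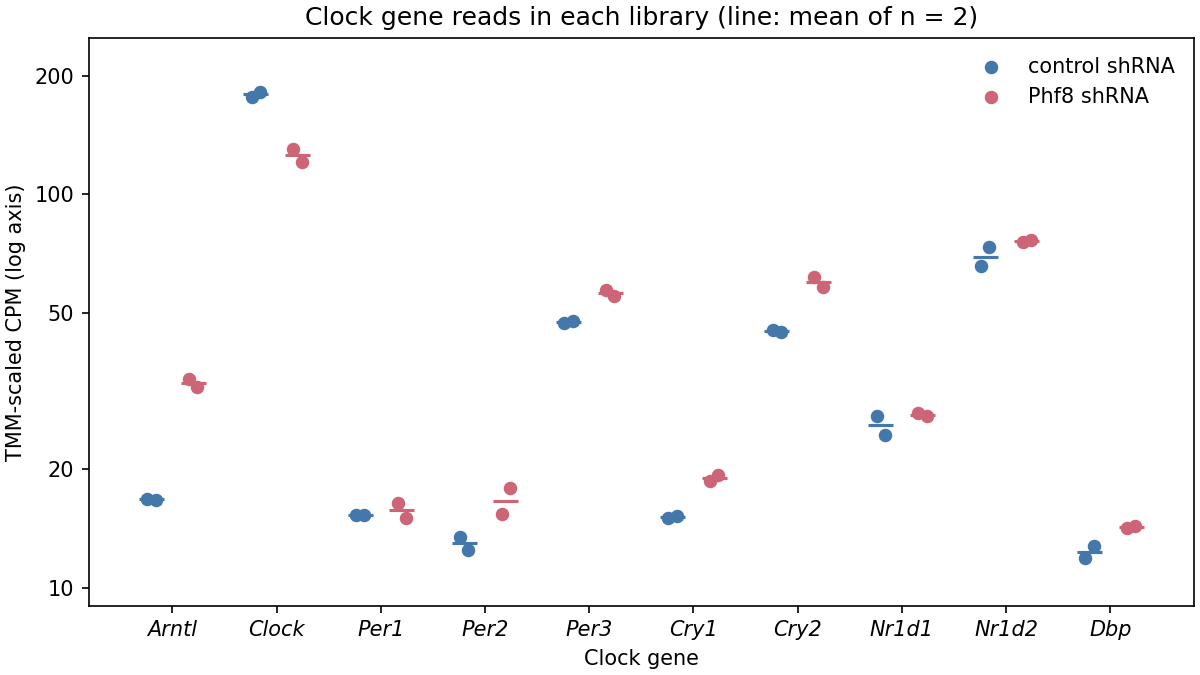
TMM-scaled CPM of the 10 clock genes (log axis) in each of the 2 control shRNA and 2 Phf8 shRNA libraries, 1 point per library, with a line at each mean. Arntl rises from 16.8 CPM in both control libraries to 33.9 and 32.5 CPM, Clock falls to 131 and 121 CPM, and the points of Per1 overlap between groups.

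Arntl (ENSMUSG00000055116, plus strand of chromosome 7, 113207465 to 113314126 in the mm10 build) encodes BMAL1, the clock component without which the loop stops. It stood at 16.8 and 16.8 CPM in control replicates 1 and 2 and at 33.9 and 32.5 CPM in Phf8 shRNA replicates 1 and 2. Both knockdown libraries lay far above both control libraries, and the gap between groups was many times the gap within them. The log2 fold change was 0.99 ± 0.07 (SE), a 1.98-fold rise, with an adjusted p of 2.66e-44 in edgeR. It ran from 0.93 to 1.07 across the other scalings, tools, filters and left-out libraries. In bulk RNA, a change in the share of cells that carry a transcript and a change in its amount per cell cannot be told apart.

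Clock (ENSMUSG00000029238, minus strand of chromosome 5, 76209868 to 76304792) encodes the histone acetyltransferase partner of BMAL1. Its level was 177 and 182 CPM in the control libraries and 131 and 121 CPM in the Phf8 shRNA libraries. The groups did not overlap, and the direction was opposite to that of its partner. The log2 fold change was -0.51 ± 0.06 (SE), a change of -30.0%, with an adjusted p of 3.48e-19 in edgeR. The 2 partner genes therefore moved towards each other. The number of Arntl reads per Clock read, a ratio examined after the values were seen, was 0.0951 and 0.0919 in the control and 0.260 and 0.269 in the Phf8 shRNA libraries. Being taken within each library, it does not depend on the scaling between libraries.

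The Period genes encode repressors of the BMAL1 and CLOCK pair, and Per1 and Per2 also respond quickly to outside signals. Per1 (chromosome 11, 69095217 to 69109960) had 15.3 and 15.3 CPM in the control and 16.4 and 15.1 CPM in the Phf8 shRNA libraries. These values overlapped, and the log2 fold change of 0.04 ± 0.08 (SE) did not pass (adjusted p = 0.669 in edgeR). Its 95% interval ran from -0.11 to 0.20, so a change of the size seen in Arntl lies outside it. Per2 (chromosome 1, 91415982 to 91459324) had 13.5 and 12.5 CPM in the control and 15.4 and 17.9 CPM in the Phf8 shRNA libraries. The groups did not overlap, but the Phf8 shRNA libraries were further apart for Per2 than the distance from the lower of them to the higher control library. It rose 1.28-fold (log2 fold change 0.35 ± 0.08 SE, adjusted p = 4.33e-05 in edgeR). Per3 (chromosome 4, 151003652 to 151044665), the member with both D-boxes, had 47.0 and 47.7 CPM in the control and 57.2 and 55.2 CPM in the Phf8 shRNA libraries. Its libraries separated cleanly by group, with a log2 fold change of 0.25 ± 0.06 (SE) and an adjusted p of 6.01e-05 in edgeR.

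The Cryptochrome genes encode the partners of the PER proteins and the strongest repressors of the loop. Cry1 (chromosome 10, 85131700 to 85185064) stood at 15.0 and 15.2 CPM in the control and at 18.7 and 19.4 CPM in the Phf8 shRNA libraries, a log2 fold change of 0.33 ± 0.08 (SE) with an adjusted p of 5.80e-05 in edgeR. Cry2 (chromosome 2, 92403646 to 92434043) stood at 45.3 and 44.8 CPM in the control and at 61.5 and 58.3 CPM in the Phf8 shRNA libraries. Its log2 fold change was 0.41 ± 0.06 (SE), or 1.33-fold, with an adjusted p of 4.92e-12 in edgeR. Of the exonic length of Cry2, 4.67% overlapped the gene D930015M05Rik on the opposite strand. That neighbour rose from 1.76 and 2.15 CPM in the control to 3.07 and 3.78 CPM in the Phf8 shRNA libraries. Both Cryptochrome genes were higher in both knockdown libraries. Per1 and Cry1, each with an E-box close to a start, thus gave a value that did not pass and a rise of 1.26-fold.

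Among the clock genes, the REV-ERB genes and Dbp showed the smallest differences beside Per1. Nr1d1 (chromosome 11, 98767932 to 98775333) had 27.3 and 24.5 CPM in the control and 27.8 and 27.4 CPM in the Phf8 shRNA libraries, and the upper control library came within 0.1 CPM of the lower knockdown library. Its log2 fold change of 0.09 ± 0.07 (SE) did not pass (adjusted p = 0.261 in edgeR). It was 0.16 without control replicate 1 and 0.02 without control replicate 2, and passed in neither case (adjusted p = 0.109 and 0.887 in edgeR). Of its exonic length, 8.55% overlapped Thra on the opposite strand, which rose from 174 and 153 to 209 and 198 CPM. The library kit keeps strand, but whether counting used it is not stated in the labels. Nr1d2 (chromosome 14, 18204054 to 18239127) had 65.6 and 73.3 CPM in the control and 75.5 and 76.7 CPM in the Phf8 shRNA libraries. The control libraries differed from each other by more than the upper of them differed from either knockdown library. It passed narrowly, with a log2 fold change of 0.13 ± 0.06 (SE) and an adjusted p of 0.0380 in edgeR. Without control replicate 1 the log2 fold change was 0.04 (adjusted p = 0.652 in edgeR), and without Phf8 shRNA replicate 2 it was 0.12 (adjusted p = 0.0826 in edgeR), so the call rests on single libraries.

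Dbp (chromosome 7, 45705088 to 45710203) encodes a transcription factor that is a classic output of the clock. It had 11.9 and 12.8 CPM in the control and 14.2 and 14.4 CPM in the Phf8 shRNA libraries, with no overlap. The log2 fold change was 0.21 ± 0.08 (SE), with an adjusted p of 0.0257 in edgeR. It did not pass without control replicate 1 (0.15, adjusted p = 0.270), without Phf8 shRNA replicate 1 (0.22, adjusted p = 0.0537) or without Phf8 shRNA replicate 2 (0.20, adjusted p = 0.0711), all in edgeR. Of the exonic length of Dbp, 18.0% overlapped Sphk2 on the opposite strand, which had 17.4 to 18.5 CPM over all 4 libraries.

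**Figure D2:**
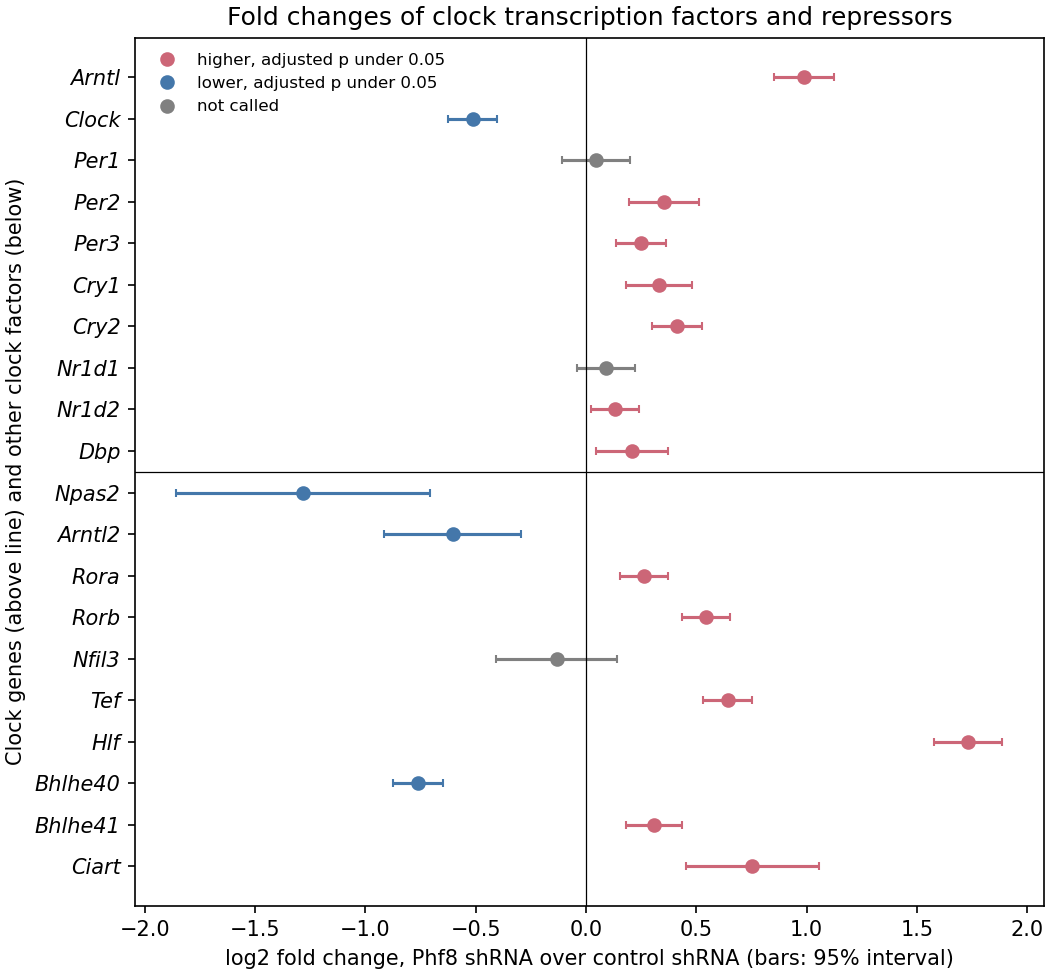
Log2 fold changes of Phf8 shRNA over control shRNA for the 10 clock genes (above the line) and 10 other clock transcription factors (below it), with bars of 95% intervals and colour for the call in edgeR. Arntl at 0.99 and Hlf at 1.73 lie furthest to the right, and Npas2 at -1.28 and Bhlhe40 at -0.76 furthest to the left.

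The calls of Arntl, Clock, Per2, Per3, Cry1 and Cry2 held at an adjusted p under 0.05 in the 13 alternatives of scaling, tool, filter, replicate block and left-out library, while Nr1d2 and Dbp each held in 7 of them. The common biological coefficient of variation estimated between libraries was small, 3.64%. When it was set to 0.2, Arntl was the only clock gene still called (adjusted p = 0.00786, edgeR's likelihood ratio test), beside 15.7% of all genes. Clock then had an adjusted p of 0.272 in the same test. The groups did not overlap in 9 of the 10 genes, but neither did they in 73.9% of all genes tested.

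**Figure D3:**
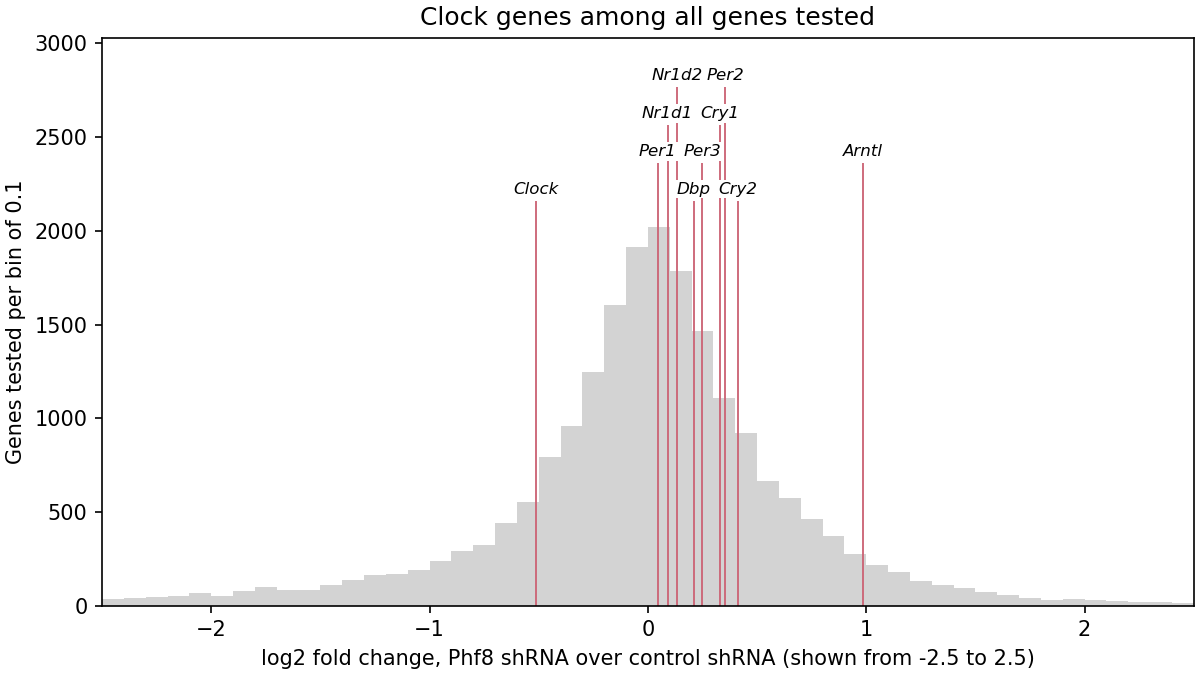
Number of genes tested per 0.1 of log2 fold change (grey bars, shown from -2.5 to 2.5), with a line at each clock gene. Apart from Arntl at 0.99 and Clock at -0.51, the clock genes lie between 0.04 and 0.41, within the central mass of all genes.

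Levels between genes were compared as CPM per kilobase of annotated exons, in which a gene with long alternative exons is understated. In the control libraries Clock (13.1 ± 0.305 SD, n = 2) and Nr1d2 (12.8 ± 1.01) were highest and overlapped each other, followed by Nr1d1 (8.41 ± 0.650), Cry2 (7.12), Per3 (4.93), Cry1 (4.53), Dbp (4.13) and Per1 (2.71). Arntl (2.23 ± 0.00342) and Per2 (2.22 ± 0.122) were lowest and overlapped. In the Phf8 shRNA libraries Nr1d2 alone was highest at 14.1 ± 0.158 CPM per kilobase. Cry2 (9.48), Clock (9.15) and Nr1d1 (8.96) followed, each overlapping the next. Arntl stood at 4.41 ± 0.138, above Per2 (2.84) and Per1 (2.79), which overlapped. Clock thus lost its place beside Nr1d2, and Arntl left the lowest place. Nr1d1 stood above Cry2 in the control and below it in the Phf8 shRNA libraries, without overlap in either group. Per1 stood above Per2 in the control only, while Per3, Cry1 and Dbp kept their order.

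Ratios of reads within a library give the balance between arms of the loop without any scaling. Nr1d1 reads per Arntl read were 1.63 and 1.46 in the control and 0.818 and 0.843 in the Phf8 shRNA libraries. Dbp reads per Arntl read were 0.710 and 0.764 in the control and 0.418 and 0.443 in the Phf8 shRNA libraries. The ratios of Per2 to Arntl (0.803 and 0.745 against 0.453 and 0.552) and of Per3 to Arntl (2.80 and 2.84 against 1.68 and 1.70) were lower in both Phf8 shRNA libraries too. These 4 ratios share Arntl and so repeat its rise. Ratios between relatives differed less. Per1 reads per Per2 read were 1.13 and 1.23 in the control and 1.07 and 0.841 in the Phf8 shRNA libraries, without overlap. The ratios of Cry1 to Cry2 (0.332 and 0.340 against 0.303 and 0.332) and of Nr1d1 to Nr1d2 (0.416 and 0.334 against 0.368 and 0.357) overlapped between groups. With 2 libraries in each group an exact two-sided permutation test cannot give a p below 0.333, and no test of the ratios was made.

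**Figure D4:**
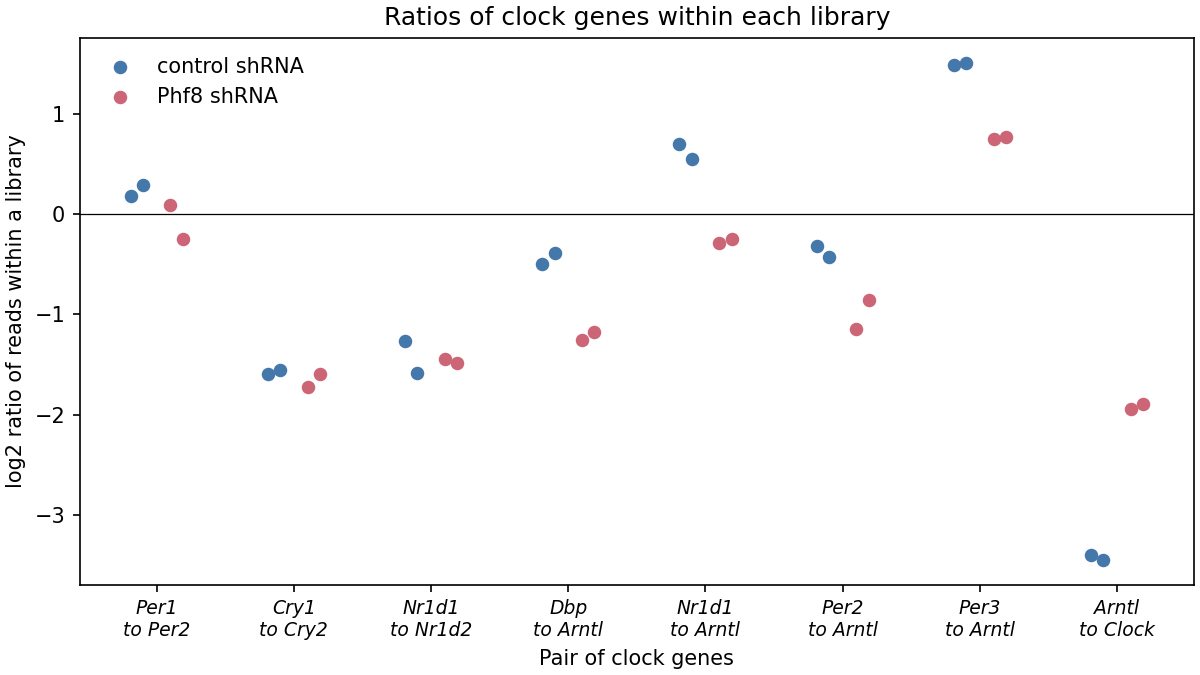
Log2 ratio of reads of 2 clock genes within each library, 1 point per library. The 4 ratios to Arntl are lower in both Phf8 shRNA libraries by 0.63 to 0.89, Arntl to Clock is higher by 1.5, and Cry1 to Cry2 and Nr1d1 to Nr1d2 overlap between groups.

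Other transcription factors of the clock spanned a wider range of fold changes than the core genes, from -1.28 to 1.73 on the log2 scale. Of the 10 reported here, 6 rose (Rora, Rorb, Tef, Hlf, Bhlhe41 and Ciart), 3 fell (Npas2, Arntl2 and Bhlhe40), and the D-box repressor gene Nfil3 did not pass (log2 fold change -0.13 ± 0.14 SE). These counts describe 10 genes, beside 52.1% called of all genes tested and 65.1% of those with at least 10 CPM. The relatives of Dbp had larger fold changes than Dbp itself. Hlf went from 8.13 and 9.60 CPM in the control to 28.3 and 30.7 CPM in the Phf8 shRNA libraries, a 3.33-fold rise (adjusted p = 3.78e-105 in edgeR). Tef went from 92.3 and 90.6 to 147 and 139 CPM, a 1.56-fold rise (adjusted p = 2.18e-29 in edgeR). Both passed a test of their own, but the difference between them and Dbp was not tested.

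Rora and Rorb encode nuclear receptors known to activate Arntl. Rorb rose 1.46-fold from 88.8 and 88.1 to 132 and 125 CPM, and Rora rose 1.20-fold from 61.2 and 62.0 to 72.2 and 75.7 CPM. Both were higher in both Phf8 shRNA libraries. Close relatives of the central pair were lower: Npas2, which can stand in for Clock, went from 1.09 and 1.29 to 0.555 and 0.408 CPM, and Arntl2 from 3.60 and 3.79 to 2.33 and 2.53 CPM. Npas2 thus fell together with Clock, whereas Arntl2 fell while Arntl rose.

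The DEC repressors, which compete for E-boxes, went in opposite directions. Bhlhe40 (DEC1) fell 1.69-fold from 69.9 and 68.5 to 42.8 and 38.8 CPM, and Bhlhe41 (DEC2) rose 1.24-fold from 28.7 and 28.0 to 35.1 and 35.1 CPM. Of the exonic length of Bhlhe41, 19.1% overlapped the gene Gm43909 on the opposite strand, which had 0.562 to 1.06 CPM. Ciart, the gene with 3 E-boxes shown above, rose 1.69-fold at a low level, from 2.24 and 2.66 to 4.37 and 3.87 CPM (adjusted p = 3.61e-06 in edgeR). Promoter sequence was available for 9 of the other clock factors, of which Tef and Bhlhe41 also held an E-box in a searched window. Hlf, Rora and Rorb, which rose as well, held none, and neither did Npas2, Arntl2 and Nfil3. For Bhlhe40, which fell, no promoter sequence was available. A link between E-boxes and the direction of change was not tested. Hlf held the word TGACGTCA 9 bases before its start, and Nfil3 the word AGGTCA 12 bases before its start.

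Over all 47 clock-associated genes, the factors above included, 17 rose, 16 fell and 14 did not pass, a share of 70.2% called beside 52.1% of all genes and 65.1% of genes with at least 10 CPM. Their median log2 fold change was -0.01. Among 12 kinases, ubiquitin ligases and proteases that act on clock proteins, 4 rose and 4 fell, or 66.7% called. Csnk1a1, a casein kinase gene, fell 2.22-fold from 745 and 762 to 346 and 333 CPM, while Csnk1e, whose product phosphorylates PER proteins, rose 1.31-fold and Csnk1d was at 108 to 113 CPM in all libraries (log2 fold change -0.01 ± 0.06 SE). The genes of the 2 catalytic subunits of AMP-activated kinase, which marks CRY proteins for degradation, went apart, with Prkaa1 at a log2 fold change of -0.47 and Prkaa2 at 0.64.

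Of 9 cofactors, 3 rose and 2 fell, a share called of 55.6%, near the 52.1% of all genes tested and under the 65.1% of genes with at least 10 CPM. Timeless, which also acts at replication forks, fell 2.06-fold from 6.72 and 6.55 to 3.30 and 3.13 CPM, and the deacetylase gene Sirt1 fell 1.30-fold. The REV-ERB corepressor gene Ncor1 and the acetyltransferase gene Crebbp rose 1.18-fold and 1.15-fold. All 5 markers of dividing cells examined fell as well, with summed levels of 66.0 and 67.5 CPM in the control and 22.0 and 18.2 CPM in the Phf8 shRNA libraries. Their part in the fall of Timeless was not tested.

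Of 7 genes on routes that induce Per transcription, 2 rose and 2 fell, and the share called, 57.1%, was likewise near these backgrounds. Crtc1, a coactivator of the factor CREB, rose 1.48-fold, and Srf, the serum response factor gene, fell 1.59-fold from 20.5 and 19.2 to 12.4 and 12.6 CPM. Sik1, an inhibitor of CRTC proteins, rose 1.34-fold from 2.61 and 2.64 to 3.47 and 3.59 CPM, and Crem fell 1.24-fold. Sik1 did not pass without control replicate 1 or 2 (adjusted p = 0.0974 and 0.0718), and Crem did not pass without control replicate 1 (0.0795), in edgeR. Of 8 genes known to follow the clock in many tissues, 2 rose and 4 fell, or 75% called, a description of 8 genes beside the same backgrounds. Klf9 rose 2.65-fold from 6.47 and 6.45 to 17.2 and 17.0 CPM, whereas Klf10, a relative, fell 2.51-fold from 27.2 and 28.9 to 11.3 and 11.0 CPM. Tspan4 fell 1.73-fold and Pdk4 fell 2.17-fold. Genes on this list went both up and down, as did all genes tested (24.8% higher, 27.3% lower).

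Markers of other cell types also differed between the groups. Of 9 markers of the oligodendrocyte lineage, 8 rose, with summed levels of 602 and 563 CPM in the control and 907 and 888 CPM in the Phf8 shRNA libraries, and of 7 neuronal markers 6 were tested and 5 rose (1091 and 1132 against 1756 and 1747 CPM summed). Of 5 neural progenitor markers, 2 rose and 2 fell, and their sum went from 1356 and 1395 to 520 and 502 CPM. Microglial markers summed to 8.43 and 8.89 CPM in the control and 5.99 and 6.18 CPM in the Phf8 shRNA libraries, with 4 of 7 tested, 1 lower, and 5 under 1 CPM everywhere. Endothelial and mural markers summed to 25.4 to 25.8 CPM in all libraries, but their members moved apart: of 5 tested, Pdgfrb rose and Rgs5, Acta2 and Kdr fell, and the endothelial gene Cdh5 had 0 reads in every library. These counts stand beside 52.1% called of all genes tested and 65.1% of those with at least 10 CPM. The part of these cell types in the clock gene differences was not tested.

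The protein-coding genes whose pattern over the 4 libraries was nearest to that of Arntl, among 11607 compared, were Tspan7, Lbh and Plcb1. Their distances in centred log2 CPM were 0.015, 0.024 and 0.027. Tspan7, the nearest, had 90.7 and 90.2 CPM in the control and 181 and 174 CPM in the Phf8 shRNA libraries. With 2 conditions this measure finds genes that doubled and says little else.

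**Figure D5:**
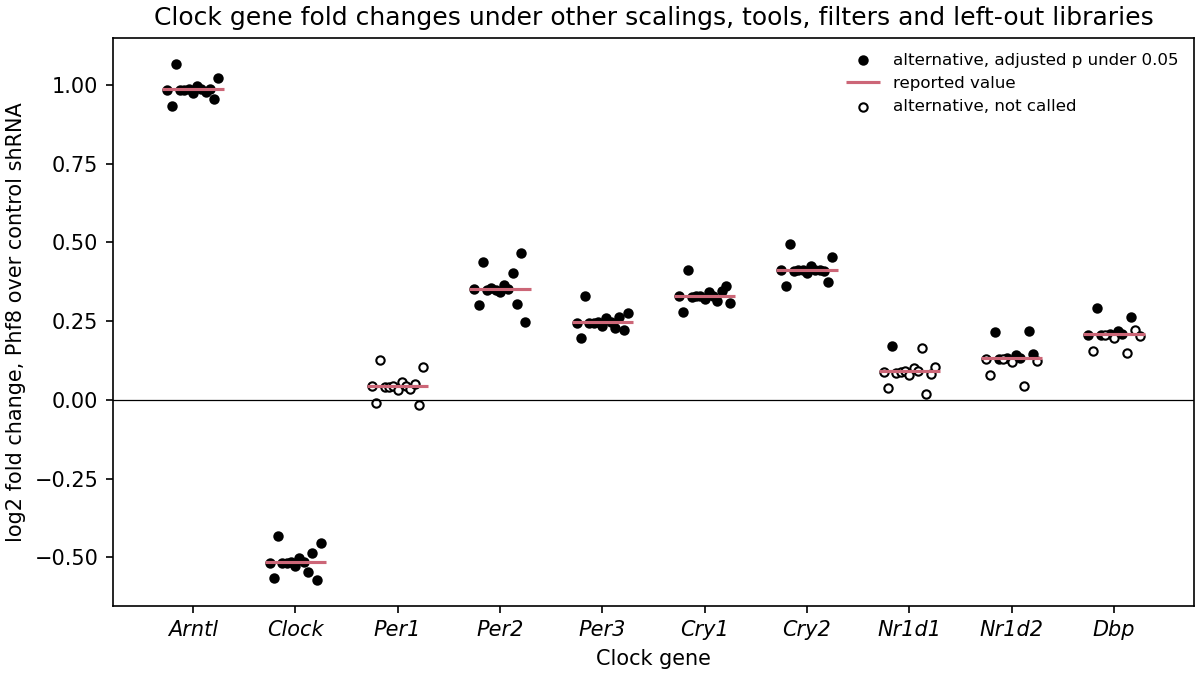
Log2 fold change of each clock gene as reported (line) and under 13 alternatives of scaling, tool, filter, replicate block and left-out library (points, filled where called), without the setting of the biological coefficient of variation to 0.2. Arntl stays between 0.93 and 1.07 and Clock between -0.57 and -0.43, while Per1 crosses 0 and the points of Nr1d2 and Dbp are partly open.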

How the data were processed

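RNA of 4 libraries, 2 per group, was measured as reads per gene. The deposited files hold whole-number counts, and per the submitters' processing notes HISAT2, HTSeq and DESeq2 were used with mm10, without versions or settings. The sources used here do not state whether counting used strand. Groups came from sample titles. Symbols were matched for 55154 of 55421 identifiers. GENCODE M21, of the same build, gave exon lengths and overlaps.

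Counts were tested two-sided with edgeR 4.0.16 (R 4.3.3), by its quasi-likelihood method, after filterByExpr and TMM scaling, without covariates. A gene was called where its p, adjusted by Benjamini-Hochberg over 21042 genes, was under 0.05. Each SE is the fold change divided by the root of its F. On simulated counts (20644 genes tested, 50 changed per fold) this recovered 27 of the genes changed 1.25-fold and 48 of those changed 2-fold. There were 13 false calls. The simulation changed far fewer genes than were called in the data, and its spread was the one estimated between these libraries. Recovery and false calls in the data may therefore differ. Alternatives were other scalings, DESeq2 1.42.0, limma-voom (limma 3.58.1), other filters and thresholds, a replicate block, left-out libraries and a set spread.

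The clock genes, all lists and the naming rule (every clock gene and listed clock transcription factor, and up to 4 called genes of smallest p per other list) were chosen with earlier results of these data known. Csnk1d, the opposite-strand neighbours and the single cell type markers named were picked outside that rule after their values were seen. The list of other clock factors holds 1 more gene, which enters the counts over all 47 clock-associated genes and is not reported here.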

Additional observations from a re-analysis of the deposited data

How the results depend on the processing

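Of 140 values of the 10 clock genes under alternatives, 118 kept direction and side of the threshold, 19 lost the call, 1 gained it (Nr1d1 with upper-quartile scaling, 0.17) and 2 reversed: Per1 with the library size alone (-0.00865) and when single libraries were left out (-0.0169 to 0.104). With the biological coefficient of variation at 0.2, 1 clock gene was called (1 higher, 0 lower), 9 clock-associated genes (2 higher, 7 lower) and 3305 of all genes (1262 higher, 2043 lower). With at least 1.5-fold, 1 clock gene was called (1 higher, 0 lower). Leaving out 1 library gave 6 to 8 clock genes (5 to 7 higher, 1 lower), 30 to 34 clock-associated genes (16 to 17 higher, 14 to 17 lower) and 9052 to 10234 of all genes (4038 to 4755 higher, 4917 to 5479 lower). Nr1d2 also lost its call with DESeq2's size factors (0.13), library size alone (0.08), DESeq2 (0.13) and no filter (0.12), and Dbp with library size alone (0.16), DESeq2 (0.21) and no filter (0.20). The causes of these changes were not tested. Higher genes were 47.7% of all calls, 58.0% with upper-quartile scaling and 40.3% with library size alone. Clock-associated genes that reversed had not passed: with upper-quartile scaling Csnk1d (0.0691), Hdac3 (0.0323), Nono (0.0447), Nampt (0.0247) and Fkbp5 (0.0249), and with library size alone Fbxw11 (-0.0294), Usp7 (-0.0336) and Creb1 (-0.0174). Without single libraries the ranges were -0.0403 to 0.018 for Csnk1d, -0.0169 to 0.0665 for Fbxw11, -0.0132 to 0.055 for Usp7, -0.116 to 0.0163 for Hdac3 and -0.0743 to 0.00305 for Nono. With the replicate block, 8 clock genes, 33 clock-associated genes and 10929 of all genes were called, and it changed no call of a clock gene. Same-numbered libraries did not deviate together (r = -0.001 across genes), and the numbers pair nothing that the labels name. Phf8 itself did not pass at a coefficient of 0.2 (adjusted p = 0.639, edgeR's likelihood ratio test). Depth limits genes of few reads, such as Npas2 and Sik1, more than the clock genes.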
